A study of Mus musculus with 6 samples.

Results

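Bone morphogenetic proteins (BMPs), growth and differentiation factors (GDFs) and activins act through type I and type II receptors, and the mRNA of 7 of these receptors was compared between outer and intermediate interzone of mouse embryos. The genes were taken by name, as Bmpr1a, Bmpr1b, Acvr1 and Acvr1b for type I receptors and Bmpr2, Acvr2a and Acvr2b for type II receptors. The arrays carry 12 probes with these names out of 55672 probes in all, and 10 of the 12 could be tested, which covered all 7 genes among 18003 tested. The outer group was outer interzone of embryos at 15.5 days of gestation (n = 3), and the intermediate group was intermediate interzone at the same age (n = 3). Each replicate was 1 embryo, per the series' design text, and the labels name no strain, genotype, treatment or joint for either group. The interzone is the band of cells that marks a future joint, with an intermediate layer between outer layers that face the cartilage. Total RNA was amplified, labelled with Cy3 and hybridised to 6 one-colour Agilent arrays.

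A ligand joins type I and type II receptors at the cell surface. The type II kinase then phosphorylates the type I receptor, which phosphorylates receptor Smads, and these carry the signal to the nucleus. Bmpr1a, Bmpr1b and Acvr1 act mainly on the BMP Smads (Smad1, Smad5 and Smad9), and Acvr1b, the main type I receptor for activin, acts on Smad2 and Smad3. In the mouse limb, BMP signalling through type I receptors is needed for cartilage to form, and Bmpr1b, which the joint ligand Gdf5 binds with preference, is needed for normal digits.

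The probes are what each value below rests on, and the 8 shown are those of Bmpr1b, of its close relative Bmpr1a, and of Acvr1 and Acvr1b, where probes to 1 gene differed in whether they gave signal. They are written 5′ to 3′ as the scanner files give them, with no part marked, and their positions are those of build mm9.
Bmpr1b, brighter probe A_66_P136389, chr3:141503374-141503433, minus strand: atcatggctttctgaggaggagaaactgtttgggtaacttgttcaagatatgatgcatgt
Bmpr1b, dimmer probe A_52_P586944, chr3:141500694-141500753, minus strand: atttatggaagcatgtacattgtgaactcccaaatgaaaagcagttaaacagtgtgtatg
Bmpr1a, probe A_52_P17146, chr14:35224339-35224398, minus strand: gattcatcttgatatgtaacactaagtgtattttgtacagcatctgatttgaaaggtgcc
Acvr1, brightest probe A_55_P2159710, chr2:58298937-58298996, minus strand: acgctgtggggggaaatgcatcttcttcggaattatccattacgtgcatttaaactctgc
Acvr1, second probe A_55_P2102693, chr2:58299580-58299639, minus strand: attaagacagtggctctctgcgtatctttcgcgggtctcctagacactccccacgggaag
Acvr1, Ensembl transcript probe A_55_P2159705, chr2:58295955-58296014, minus strand: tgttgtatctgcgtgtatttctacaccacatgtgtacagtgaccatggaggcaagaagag
Acvr1b, brighter probe A_52_P373893, chr15:101043956-101044015, plus strand: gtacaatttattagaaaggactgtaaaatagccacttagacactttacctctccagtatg
Acvr1b, dimmer probe A_55_P2123957, chr15:101042850-101042909, plus strand: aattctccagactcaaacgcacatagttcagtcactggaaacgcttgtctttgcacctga

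Each probe is 60 bases long, and none of the 12 shares a run of 20 bases with an array probe of another gene name. Both Bmpr1b probes were designed on 1 RefSeq transcript, and their starts lie 2680 bases apart in it and 2680 bases apart in the genome, so no intron separates them. The same held for the brightest and second Acvr1 probes, 643 bases apart, and for both Acvr2a probes, 1105 bases apart. The remaining Acvr1 probe is named for an Ensembl transcript, and the brighter Acvr1b probe for a cDNA accession. Coding and untranslated parts were not looked up.

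Bmpr1b was the only receptor gene that passed adjusted p 0.05 between the layers in limma. Levels are log2 values of the processed signal divided by the 75th percentile of its array. Bmpr1b stood at 1.37, 1.52 and 1.37 in outer replicates 1, 2 and 3, against -0.74, 0.12 and -0.36 in intermediate replicates 1, 2 and 3. All outer samples lay above all intermediate samples, and the outer samples were close together while the intermediate samples were spread over a wider range. The mean was 1.42 ± 0.09 in outer samples and -0.33 ± 0.43 in intermediate samples (SD, n = 3 each), a difference of 1.75 with SE 0.24, or 3.36-fold higher in the outer interzone (95% interval of the log2 difference 1.18 to 2.32; limma adjusted p = 0.0174 over all genes). Its signal exceeded background clearly on each of the 6 arrays. Of all genes tested, 4.05% passed the threshold of adjusted p 0.05, 1.57% higher and 2.48% lower in the outer interzone. Among the 7 receptor genes, 1 passed. At an unadjusted p under 0.05 in limma the count was also 1 of 7, against 21.1% of all genes, and 0.989% of all genes had a smaller p than Bmpr1b.

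The dimmer Bmpr1b probe separated the groups in the same direction. It stood at -1.53, -1.43 and -1.55 in the outer and at -2.97, -2.84 and -2.80 in the intermediate samples. Its signal too exceeded background on each of the 6 arrays, and the groups did not overlap. The margin was small on the dimmest arrays. The processed signal was 16.4 on outer replicate 1, where the lowest spot well above background read 13.4. On intermediate replicate 1 it was 18.4, against 11.9 for that array's lowest such spot. The difference was 1.37 with SE 0.16 (limma adjusted p = 0.0122 in the fit over all tested probes, of which 3.48% passed, 1.33% higher and 2.16% lower in the outer interzone). With normexp background correction and quantile normalization (hereafter called normexp) it was 0.51 (limma adjusted p = 0.0481), against 1.33 for the brighter probe (limma adjusted p = 0.00773). The dimmer probe missed the threshold without outer replicate 3 (limma adjusted p = 0.0581), intermediate replicate 1 (0.0559) or intermediate replicate 3 (0.0641). It also missed with each array scaled to its median (0.97, limma adjusted p = 0.0516). The same held with the replicate number as a block and quantile normalization together (1.20, limma adjusted p = 0.0677).

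**Figure D1:**
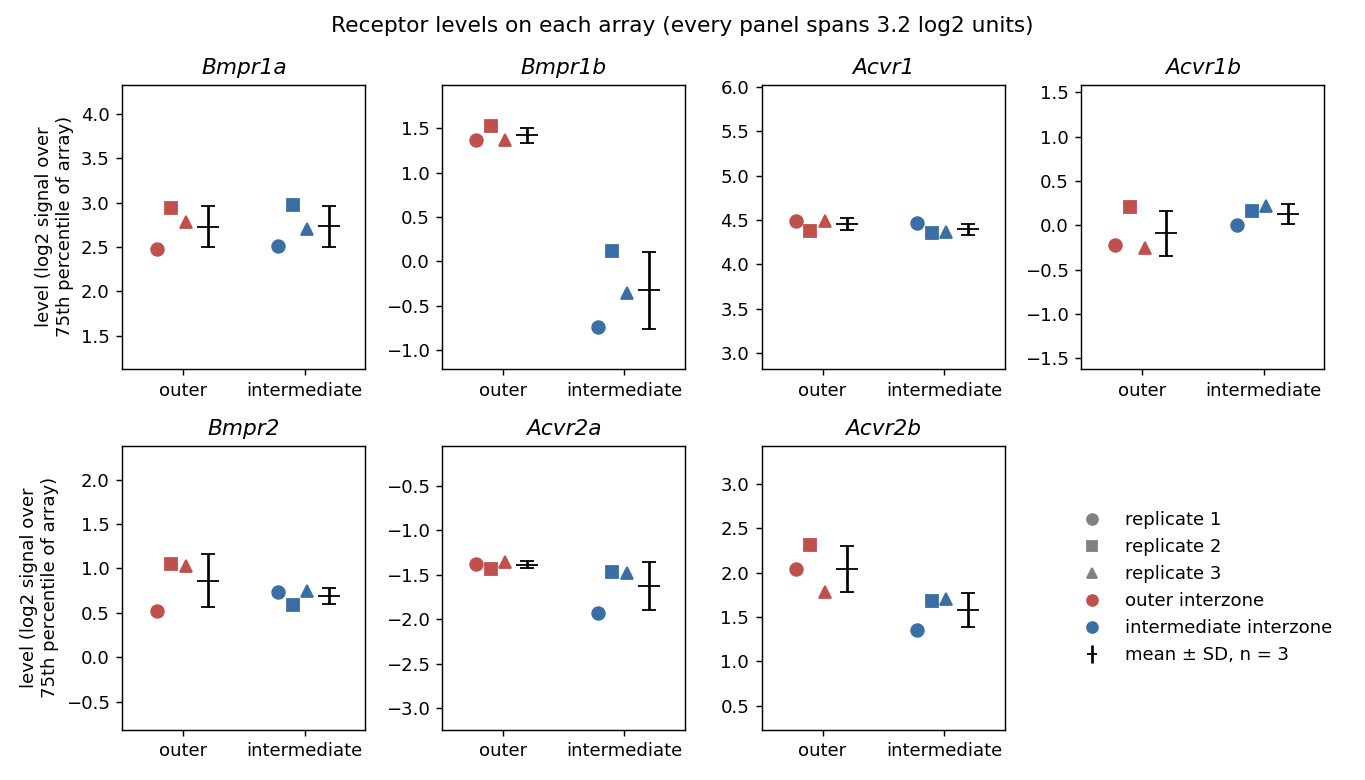
Levels of the 7 receptor genes on each of the 6 arrays (log2, relative to the array's 75th percentile), with outer samples left and intermediate samples right in each panel. Symbols mark the replicate number and bars the mean ± SD (n = 3). Bmpr1b shows a wide gap, with outer samples from 1.37 to 1.52 and intermediate samples from -0.74 to 0.12.

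The call for Bmpr1b depended on single arrays. It was lost without outer replicate 3 (limma adjusted p = 0.0691), without intermediate replicate 1 (0.0544) or without intermediate replicate 3 (0.0823), and the difference stayed between 1.54 and 1.97 whichever array was left out. The slide with the 3 intermediate arrays and outer replicate 1 gave 1.70 on its own. A test there takes the lone outer array to vary as much as the intermediate ones. With slide as a block the difference was also 1.70 (limma adjusted p = 0.0419). The other slide held outer arrays alone, so this difference too rests on outer replicate 1 as the only outer array. Without a filter on dim probes no gene passed, and Bmpr1b had an adjusted p of 0.129 in limma.

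Bmpr1a, the BMP type I receptor closest to Bmpr1b in sequence, did not follow it. It stood at 2.48, 2.94 and 2.78 in outer replicates 1, 2 and 3, against 2.51, 2.98 and 2.71 in intermediate replicates 1, 2 and 3. The groups covered the same range, and in both layers replicate 1 was lowest and replicate 2 highest. The difference was -0.00065 with SE 0.21 (95% interval -0.49 to 0.49; limma adjusted p = 0.999).

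The change of Bmpr1b relative to Bmpr1a does not depend on the constant by which an array was scaled, since both probes were read on the same array. The log2 ratio of the Bmpr1b signal to the Bmpr1a signal was -1.11, -1.42 and -1.40 in outer replicates 1, 2 and 3, against -3.25, -2.86 and -3.07 in intermediate replicates 1, 2 and 3. The groups did not overlap. The mean ratio was 3.36-fold higher in the outer interzone, a difference of 1.75 on the log2 scale (two-sided exact permutation test, p = 0.1, the smallest that 3 against 3 samples allow). The ratio compares changes, and it says nothing of which receptor is more abundant.

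**Figure D2:**
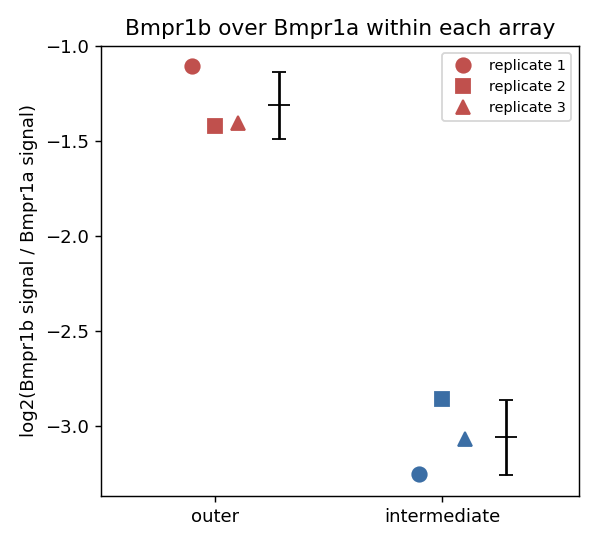
Log2 ratio of Bmpr1b to Bmpr1a signal within each array, for outer (left) and intermediate (right) samples, with mean ± SD (n = 3). Outer samples lie between -1.42 and -1.11 and intermediate samples between -3.25 and -2.86.

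Acvr1, a type I receptor for several BMPs, did not pass. Its brightest probe stood at 4.49, 4.37 and 4.50 in the outer and at 4.47, 4.35 and 4.37 in the intermediate samples, a difference of 0.06 with SE 0.15 (95% interval -0.30 to 0.42; limma adjusted p = 0.865). The second probe differed by 0.05 (95% interval -0.53 to 0.62). The probe for the Ensembl transcript did not rise clearly over background in any sample and has no fold. The groups overlapped for both tested probes, and the 6 values of the brightest lay close together.

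Acvr1b, the type I receptor of activin, stood at -0.22, 0.21 and -0.25 in the outer samples, against 0.01, 0.16 and 0.22 in the intermediate samples. The groups overlapped, because outer replicate 2 lay within the intermediate range. The difference was -0.22 with SE 0.19 (95% interval -0.67 to 0.23; limma adjusted p = 0.553). The dimmer probe, which is the one on the RefSeq transcript, gave no signal clearly over background in any of the 6 samples.

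The type II receptors did not pass the threshold. Bmpr2, a type II receptor for BMPs, stood at 0.52, 1.04 and 1.02 in outer replicates 1, 2 and 3, against 0.74, 0.59 and 0.74 in intermediate replicates 1, 2 and 3. Outer replicate 1, the dimmest array, was the lowest of all 6 and the other outer samples were the highest. The difference was 0.17 with SE 0.20 (95% interval -0.30 to 0.64; limma adjusted p = 0.654), and it was -0.17 with slide as a block (limma adjusted p = 0.693).

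Acvr2a, which binds activins and BMPs, stood at -1.38, -1.43 and -1.36 in the outer samples, against -1.94, -1.46 and -1.48 in the intermediate samples. All outer samples lay above the intermediate ones, narrowly for intermediate replicates 2 and 3. The difference was 0.24 with SE 0.19 (95% interval -0.21 to 0.68; limma adjusted p = 0.510). The dimmer Acvr2a probe, well above background on 2 of 3 outer and all 3 intermediate arrays, differed by 0.22 (95% interval -0.41 to 0.84), and its groups overlapped.

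Acvr2b, its relative, stood at 2.04, 2.31 and 1.79 in outer replicates 1, 2 and 3, against 1.35, 1.68 and 1.70 in intermediate replicates 1, 2 and 3. The groups did not overlap, with outer replicate 3 just above intermediate replicate 3. The mean was 2.04 ± 0.26 in outer samples and 1.58 ± 0.20 in intermediate samples (SD, n = 3 each), a difference of 0.47 with SE 0.20 (95% interval -0.02 to 0.95; limma adjusted p = 0.252). With each array scaled to its median it was 0.07. With quantile normalization it was 0.44 (95% interval 0.02 to 0.86, limma adjusted p = 0.230), and with normexp 0.43 (95% interval 0.06 to 0.80, limma adjusted p = 0.179). At an unadjusted p under 0.05 in limma, 2 of 7 receptor genes passed in each of these 2 settings, against 3690 and 3765 of 18003 genes.

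Over the receptor genes, the groups did not overlap for 3 of 7, namely Bmpr1b, Acvr2a and Acvr2b, against 27.1% of all genes tested. The median difference was 0.17 over the 7 receptor genes and 0.10 over all genes. For the other 6 receptor genes the 95% intervals together ran from -0.67 to 0.95, so each lay inside a 2-fold difference in either direction. That held for 4 of them with arrays scaled to their medians, which moves the median of all genes to -0.29. On that scale Bmpr1a differed by -0.39 (95% interval -1.05 to 0.27), Acvr1b by -0.61 (95% interval -1.23 to 0.01) and Bmpr1b by 1.36 (limma adjusted p = 0.0298). Acvr1, Bmpr2 and Acvr2a, which did not pass on either scale, were then at -0.34, -0.22 and -0.15.

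**Figure D3:**
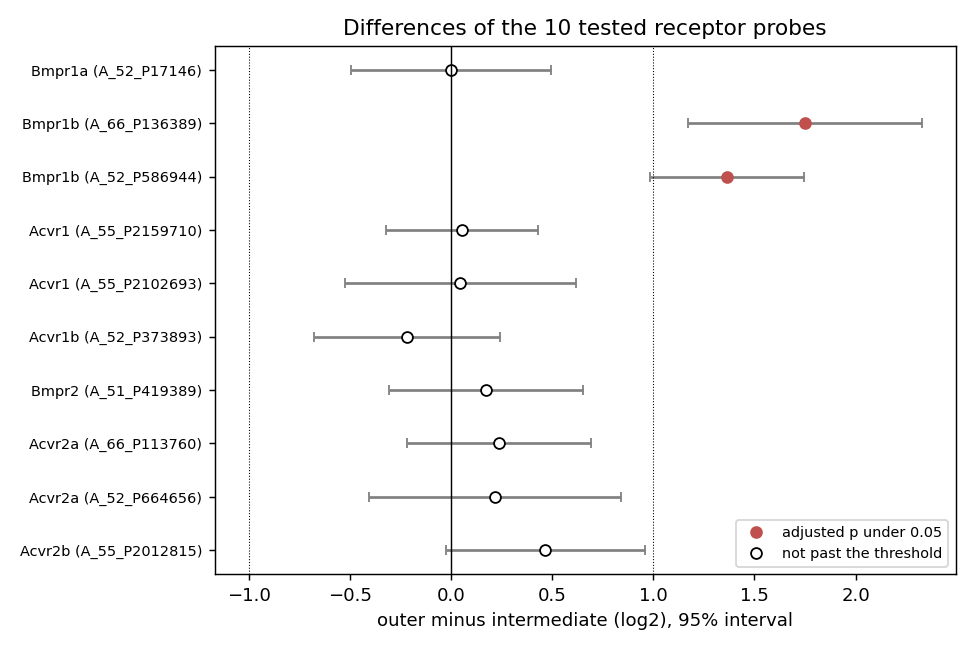
Outer minus intermediate difference of the 10 tested receptor probes on the log2 scale with 95% intervals from limma over all tested probes; dotted lines mark a 2-fold difference. Both Bmpr1b probes, at 1.75 and 1.37, are filled because they passed adjusted p 0.05, and the other 8 have intervals that reach or cross 0.

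The other genes of the pathway were read from lists by role. Of 81 listed genes 69 were tested, and 6 were higher and 2 lower in the outer interzone, or 11.6%, against 4.05% of all genes. The lists were chosen with earlier results of these data known, so this share is not a test. Of the called genes, Bmp5, Bmper, Id4 and Gdf6 entered the test only through the group where they were higher. With signal required on all 6 arrays, 4 of 52 listed genes passed, against 460 of 14805 of all genes. The balance of higher to lower depended on the processing. It was 6 to 5 with median scaling, 6 to 7 with normexp, 6 to 6 with slide as a block and 11 to 6 with the replicate number as a block. Among the other receptors of the superfamily, 1 of 4 tested passed. Acvrl1, an endothelial type I receptor also called Alk1, stood at 0.36, 0.32 and 0.25 in the outer and at 1.67, 1.48 and 1.97 in the intermediate samples. The groups did not overlap, and the difference was -1.40 with SE 0.18 (limma adjusted p = 0.0159), in the direction opposite to Bmpr1b. Of 6 endothelial markers tested, 5 were lower in the outer interzone and Kdr was not (0.82, limma adjusted p = 0.231). The 5 differed by -2.93 to -1.90. Among them, Tek exceeded background clearly in only 1 of 3 outer samples, and Tie1 and Emcn in 2 of 3. The summed linear level of the 5 ran from 1.46 to 3.69 in the outer and from 11.6 to 15.2 in the intermediate samples. With Kdr, which makes up most of the sum, it ran from 28.9 to 61.5 in the outer and from 32.6 to 43.0 in the intermediate samples. Their part in the Acvrl1 result was not tested. Acvrl1 lost its call within the shared slide (limma adjusted p = 0.0520) and without outer replicate 3 (0.0691), intermediate replicate 1 (0.0611) or intermediate replicate 3 (0.0711).

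Among co-receptors and the pseudoreceptor, 1 of 6 tested passed, Tdgf1 (Cripto), a co-receptor known from nodal signalling through Acvr1b. It was higher in the outer interzone by 1.52 with SE 0.25 (limma adjusted p = 0.0256), and Acvr1b itself did not pass. With normexp it differed by 0.96. Of 13 BMP and GDF ligands tested, Bmp5 and Bmp2 were higher (3.97 and 1.94) and Gdf6 lower (-1.77) in the outer interzone, with limma adjusted p = 0.00433, 0.0182 and 0.0167. Gdf5, the ligand that prefers Bmpr1b, did not pass (-0.0034, limma adjusted p = 0.998). Bmp5 exceeded background clearly in only 2 of 3 intermediate samples and Gdf6 in 2 of 3 outer samples, and with normexp the differences were 1.83 and -1.01. Of 7 activin, inhibin and myostatin ligands tested, 0 passed in limma, and the brightest were Inhba (-0.44, adjusted p = 0.631) and Inhbb (-0.96, adjusted p = 0.178).

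Of 15 secreted antagonists tested, 2 passed, both higher in the outer interzone. Sostdc1 and Bmper, secreted proteins that bind BMPs, differed by 4.23 and 4.10 (limma adjusted p = 0.00889 and 0.0311), and Bmper passed under 8 of 17 alternatives. It missed the threshold with slide as a block (adjusted p = 0.0502), within the shared slide (0.0545) and with quantile normalization (0.0508). Bmper signal was clear of background in 2 of 3 intermediate samples, and the normexp difference was 2.61. None of 8 Smads passed in limma, and the brightest, Smad5 and Smad3, differed by 0.02 and -0.71 (adjusted p = 0.947 and 0.148). None of 8 receptor partners inside the cell passed in limma either, and Fkbp1a, which binds type I receptors and keeps them silent, differed by 0.19 (adjusted p = 0.678) and Tab1 by 0.20 (adjusted p = 0.514). Of 8 BMP target genes 1 passed, Id4, an inhibitor of helix-loop-helix transcription factors, at 4.36 (limma adjusted p = 0.00741). In the intermediate group 2 of 3 samples had Id4 clear of background, and the normexp difference was 2.36. Of these 8 called genes, Tdgf1, Bmp2 and Gdf6 missed the threshold without outer replicate 3 (limma adjusted p = 0.0910, 0.0748 and 0.0704), without intermediate replicate 1 (0.0846, 0.0598 and 0.0657) and without intermediate replicate 3 (0.114, 0.0784 and 0.0547). Bmp2 also missed it within the shared slide (0.0603), Tdgf1 without intermediate replicate 2 (0.0623), Sostdc1 without intermediate replicate 3 (0.0525), and Bmper without outer replicate 1 or 3 (0.0618 and 0.0917) and without intermediate replicate 2 or 3 (0.0737 and 0.0574).

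**Figure D4:**
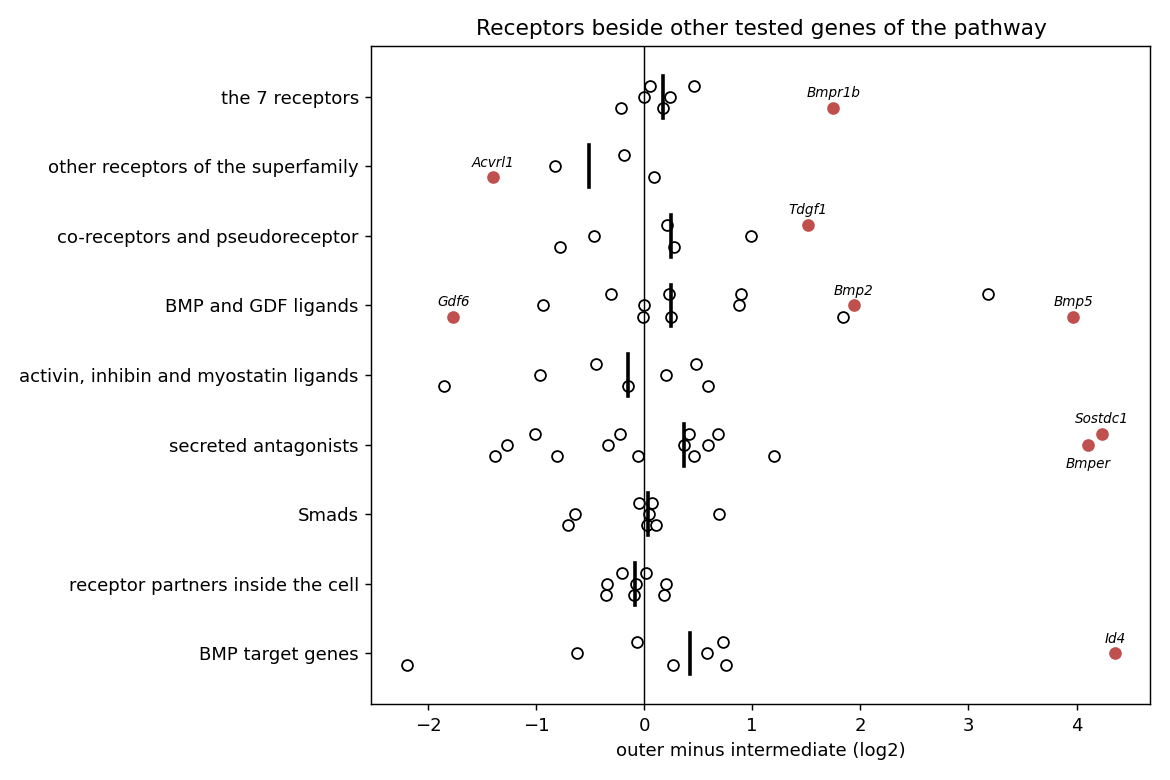
Outer minus intermediate difference on the log2 scale of the 7 receptor genes and of the 69 other tested pathway genes, by role; filled points passed limma's adjusted p 0.05 and are named, and vertical bars are medians. Bmpr1b at 1.75 stands apart from the other 6 receptor genes, and Acvrl1 at -1.40 lies on the opposite side.

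The tested genes whose 6 levels lay nearest to those of Bmpr1b, after each gene was centred on its mean, were Rflna, Fgfrl1, Fibin, Rtn4r and Cpe. Their root mean square distance to Bmpr1b over the 6 arrays was 0.14 to 0.15 log2 units. Fgfrl1, a receptor of the FGF family without a kinase, stood at 5.84, 5.84 and 5.41 in the outer and at 3.55, 4.37 and 3.72 in the intermediate samples. As with Bmpr1b, intermediate replicate 1 was the lowest and intermediate replicate 2 the highest of the intermediate samples. Rflna, which encodes the filamin-binding protein refilin A, differed by 1.96, and Cpe, which encodes the prohormone-processing enzyme carboxypeptidase E, by 1.71. The 5 genes were chosen for this pattern, so it is given without a test.

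All 5 early joint markers on the list were well above background in all 6 samples. Gdf5, which is among them, stood at 5.69 ± 1.07 in outer samples and 5.69 ± 0.89 in intermediate samples (SD, n = 3 each). Of the 5, Wnt4 and Erg were higher in the outer interzone, by 3.41 and 0.95 (limma adjusted p = 0.0110 and 0.0417), and Gdf5, Wnt9a and Sfrp2 did not pass. Markers of some other cell types moved between the groups, namely cartilage, leukocyte, endothelial and some pericyte markers. None of the 3 tendon and 2 epidermal markers tested passed in limma, and no nerve or Schwann cell marker could be tested. All 6 cartilage markers were higher in the outer interzone, and their summed linear level ran from 513 to 769 in the outer and from 53.1 to 103 in the intermediate samples. Of 6 leukocyte and macrophage markers 5 were lower in the outer interzone, with summed levels of 5.53 to 14.4 in the outer and 42.2 to 79.0 in the intermediate samples. None of the cartilage, leukocyte or endothelial markers was below background on all arrays. However, Matn1 was clear of background in only 1 of 3 intermediate samples, and Adgre1, C1qa and Cx3cr1 in 2 of 3 outer samples. Of 3 pericyte and smooth muscle markers tested, Rgs5 (-2.37, limma adjusted p = 0.00741) was lower and Cspg4 (1.27, limma adjusted p = 0.0316) higher in outer samples. Acta2 did not pass (-2.20, limma adjusted p = 0.196), although its groups did not overlap. The summed levels over 4 markers were 22.8 to 30.2 in the outer and 20.2 to 30.6 in the intermediate samples, and Cspg4 made up most of the outer sum. No skeletal muscle or erythroid marker passed in limma, but outer replicate 1 stood below the other 5 samples in both, with Actc1 at -0.76, against 4.46 and 4.46 in outer replicates 2 and 3, and Hba-a1 at 5.65, against 9.01 and 9.16 there. The part of these markers in the Bmpr1b result was not tested. In these bulk samples fewer cells of a type and less RNA per cell cannot be told apart. The 75th percentile of the signal ran from 47.4 to 290 on the outer and from 144 to 344 on the intermediate arrays, and outer replicate 1 was the dimmest. Without it, Bmpr1b differed by 1.77 (limma adjusted p = 0.0294). Outer replicates 2 and 3 were on a slide without intermediate arrays, so layer and slide cannot be told apart in that fit.

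The receptor genes also differ in their promoter windows, 300 bases around each annotated gene start in RefSeq, build GRCm38.p6. All 7 genes had a window, and Bmpr1b had 3. In the Bmpr1b windows the observed over expected number of CpG dinucleotides was 0.258 to 0.291, and in the windows of the other 6 genes it was 0.695 to 1.14. The median over 32851 windows was 0.384. The GC content was 48.3% to 55.7% for Bmpr1b and 59.3% to 83.7% for the other 6. The most upstream Bmpr1b window and the Bmpr1a window are shown to make this visible, 5′ to 3′ on the gene's strand, with each CpG in capitals.
Bmpr1b, chr3:141982215-141982514, minus strand: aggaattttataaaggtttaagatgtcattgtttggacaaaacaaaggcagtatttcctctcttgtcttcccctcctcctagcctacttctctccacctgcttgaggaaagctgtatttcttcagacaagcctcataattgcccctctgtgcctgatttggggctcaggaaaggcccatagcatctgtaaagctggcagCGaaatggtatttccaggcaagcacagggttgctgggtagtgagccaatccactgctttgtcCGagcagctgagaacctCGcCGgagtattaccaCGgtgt
Bmpr1a, chr14:34502497-34502796, minus strand: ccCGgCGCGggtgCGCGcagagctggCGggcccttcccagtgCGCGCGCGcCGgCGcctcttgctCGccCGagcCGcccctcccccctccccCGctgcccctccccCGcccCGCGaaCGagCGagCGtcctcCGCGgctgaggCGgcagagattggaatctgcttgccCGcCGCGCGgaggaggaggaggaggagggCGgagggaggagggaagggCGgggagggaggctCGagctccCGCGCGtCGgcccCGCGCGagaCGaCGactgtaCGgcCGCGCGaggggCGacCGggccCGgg
The Bmpr1b window holds 5 CpG dinucleotides and the Bmpr1a window 48. The arrays do not measure which start is used, and no link between base composition and the difference in level was tested.

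**Figure D5:**
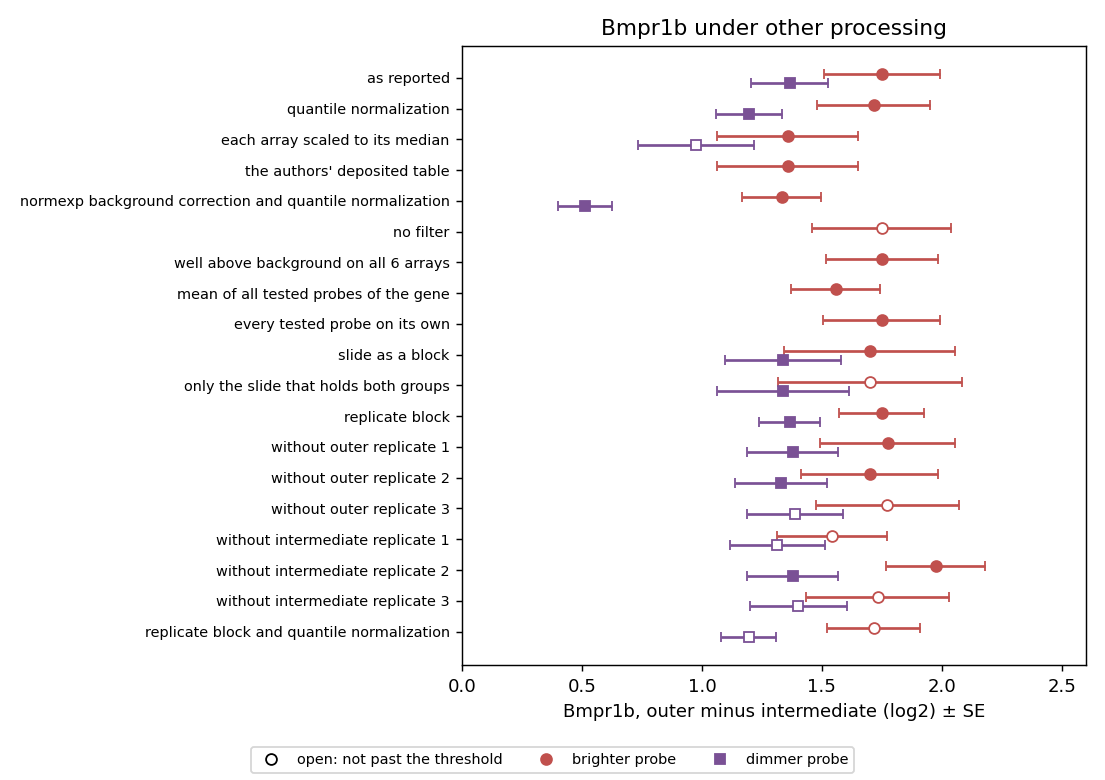
Bmpr1b difference, outer minus intermediate, on the log2 scale ± SE under each processing setting, for the gene by its brighter probe (circles; 1 setting takes the mean of both probes) and for the dimmer probe under 13 settings besides the reported one (squares); open symbols did not pass limma's adjusted p 0.05. All values lie above 0, from 1.33 to 1.97 for the circles and from 0.51 to 1.40 for the dimmer probe.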

How the data were processed

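The members and lists were chosen with earlier results of these data known. Agilent's Feature Extraction software, version 10.7.3.1 per the file headers, made the deposited scanner files; Partek 6.11.0321 is named in the submitters' processing notes. For every spot these hold a processed intensity, corrected by spatial and multiplicative detrending per the file headers. The authors' deposited table of the series holds the same intensity on a linear scale, divided by 1 constant per array so that the median is 1.

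Outlier spots were left out, spots of 1 probe averaged as log2 values and each array's 75th percentile subtracted. Testing required the scanner's well-above-background flag in all 3 samples of either group, and the brightest tested probe stood for its gene. Symbols were updated through RefSeq accessions (26762 of 28390 matched). The test of outer against intermediate was limma's (version 3.58.1, R 4.3.3; two-sided, Benjamini-Hochberg over 18003 genes), and other receptor probes in a fit over 23884 probes. The method was tested on simulated data. Named genes were all 7 receptors, up to 3 called genes per pathway list or the 2 brightest, and the 5 genes nearest to the called receptor.

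Each sample is 1 embryo per the series' design text, and the labels number both groups' samples 1 to 3 without saying whether outer and intermediate samples of 1 number share an embryo. The endothelial sum without Kdr was added after its values were seen. Across genes, same-numbered samples deviated together (correlations of 0.372 to 0.563, at most 0.114 between other numbers), so a fit with the number as a block is an alternative. Other alternatives were scaling, background correction, filters, probe choice, slide and left-out arrays. Arrays were read on 2 slides in separate scans; slide 2 held outer replicates 2 and 3 alone. The number of arrays limits precision, and no spot was saturated.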

Additional observations from a re-analysis of the deposited data

How the results depend on the processing

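The Bmpr1b difference kept its direction under all 18 alternatives, from 1.33 to 1.97, and passed under 12 of them (limma adjusted p from 0.00773 to 0.129). These are not 18 separate estimates. The difference was unchanged at 1.75 without a filter, with signal on all 6 arrays, over all probes and with the replicate block. Slide as a block and the shared slide both gave 1.70, and median scaling and the deposited table both gave 1.36. Bmpr1b passed with the replicate block (1.75, limma adjusted p = 0.0272) and missed with the replicate block and quantile normalization together, chosen after seeing the data (1.72, limma adjusted p = 0.0632). None of the other 6 receptor genes passed under any alternative. The count of receptor genes called was thus 0 without a filter, within the slide that holds both groups and with the replicate block and quantile normalization, each with 1 at unadjusted p under 0.05 in limma, and 0 to 1 over the left-out arrays. The dimmer Bmpr1b probe passed under 8 of 13 alternatives, all chosen after seeing the data.

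Of all genes, limma called 729, 282 higher and 447 lower. It called 446 with quantile normalization, 1095 (158 higher, 937 lower) with arrays scaled to their medians and, as these are the same values, with the authors' deposited table, 460 with signal required on all 6 arrays, 1215 with slide as a block, 1314 within the shared slide, 1636 with the replicate block, 68 with that block and quantile normalization, and 66 to 1111 over the left-out arrays. Without a filter it called 0, with 4268 at unadjusted p under 0.05. The 8 pathway calls became 13 with normexp, 4 with signal on all 6 arrays, 17 with the replicate block, 2 with that block and quantile normalization, 2 to 8 over the left-out arrays and 0 without a filter, where 24 had an unadjusted p under 0.05.

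Uncalled differences near 0 changed sign. Acvr1 was at -0.016 with quantile normalization, with or without the replicate block, -0.028 with normexp and -0.34 with median scaling or the deposited table. With the last pair, Bmpr2 was at -0.22 and Acvr2a at -0.15. Bmpr2 was at -0.17 with slide as a block and within the shared slide, and Bmpr1a ran from -0.11 to 0.13 over the left-out arrays, above 0 without outer replicate 1 (0.13) or intermediate replicate 2 (0.12). The cause was not tested. The outer minus intermediate difference in the log2 ratio of Bmpr1b to Bmpr1a stayed between 1.36 and 1.85. With samples paired by replicate number (replicate block) its exact permutation p was 0.25, the smallest 3 pairs allow. The dimness of outer replicate 1 limits which probes could be measured there.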
